A study of Arabidopsis thaliana with 6 samples.

Results

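Sensor NLR genes encode the intracellular receptors with which plants detect pathogen effectors. The 34 genes described here were taken from a given list of named TIR-type and CC-type receptors, with helper NLRs left out, and all 34 were found among the 33557 loci of the deposited table. The study compared messenger RNA of whole shoots (the entire aerial part) of Arabidopsis thaliana Col-0 between wild-type plants and the quadruple mutant camta1/2/3/sid2. Soil-grown plants of both genotypes were kept at 22 °C under a photoperiod of 12 h. Harvest was 21 days after germination, at dusk (zeitgeber time 12). The mutant carries mutations in CAMTA1, CAMTA2 and CAMTA3, calmodulin-binding transcription factors that restrain immunity at warm temperature, and in SID2 (ICS1), the isochorismate synthase that supplies salicylic acid in immune responses. The labels give no allele names. No camta mutant with a functional ICS1 and no single sid2 mutant is analysed here, and what each mutated gene adds cannot be told apart. There are 3 libraries per genotype, but the table holds 1 value per genotype and locus, so no difference below has a replicate check, a standard deviation or a p-value.

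An NLR carries a nucleotide-binding domain that works as a switch and, in most members, leucine-rich repeats that hold the receptor off or bind its target. Receptors with an N-terminal TIR domain (TNL, or TN when the repeats are missing) signal through EDS1 with PAD4 or SAG101 and through helper NLRs, whereas those with a coiled coil (CNL) can form calcium channels themselves. Many sensor NLRs guard a host protein and respond when an effector alters it, and too much of some NLRs is enough to trigger autoimmunity. The autoimmunity of camta3 mutants is relieved by dominant-negative forms of the TNLs DSC1 and DSC2, which ties these receptors to CAMTA3. The list holds 20 TNL, 3 TN and 11 CNL genes. The annotated product names the TIR or CC class in 23 of the 34, and the class of the other 11, among them CHS3, AT4G19500 and most CNLs, follows general knowledge. RefSeq gives a name for most members; DSC1 and DSC2 carry the names used in the gene list, and 8 members without a RefSeq name are called by locus identifier.

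The sequences that bear most directly on these genes are the nucleotide-binding switch that a microRNA targets and the short stretches from which some members are transcribed. They were read from the RefSeq TAIR10.1 genome by locus identifier. The mature miR472-3p, annotated at chr1:4182143-4182164 on the minus strand, is known to target several CC-type NLR transcripts, and it is shown with its seed, bases 2 to 8, in capitals.
miR472-3p: uUUUUCCUacuccgcccauacc
The closest ungapped complements in the members lie in the codons of the P-loop, the nucleotide-binding motif. They are shown because they let a reader see how alike this motif is across receptors; capitals mark bases that pair with miR472-3p by Watson-Crick rules, and small letters mark bases that do not.
RFL1 (chr1:4141494-4141515, plus strand): GGTATGGGtGGAGTAGGcAAAA
SUMM2 (chr1:4176992-4177013, minus strand): GGcATGGGtGGAGTAGGcAAAA
ZAR1 (chr3:18936691-18936712, plus strand): GGgATGGGaGGgcTAGGtAAAA
AT1G17600 (chr1:6055819-6055840, minus strand): GGaATGGGaGGAaTtGGgAAAA
RFL1 differed from the full 22-base complement at 2 positions and SUMM2 at 3, at the same place in both coding sequences (bases 547 to 568). RPM1, RPP13, RPP8, ZAR1 and AT1G17600 differed at 5. In all, 8 members, 7 of them CNLs, had a complement with at most 5 mismatches, against 0.262% of 26690 loci with a coding sequence. A match of letters is a description and not a measured cleavage site.

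RPS4 and RRS1, which act as a pair, are transcribed away from each other, and the annotated starts are 27 bases apart. That stretch, chr5:18326176-18326202 read on the RRS1 strand, is shown because the pair is compared below.
RPS4-RRS1: tgagatttgagtggttgaatgtccaat
For DSC2, the 250 bases before the annotated start (chr5:6089042-6089291, minus strand) are shown because the receptor is tied to CAMTA3. For ZAR1, the 62 bases between it and the gene before it (chr3:18935612-18935673, plus strand) are shown because its level differed the most downward.
DSC2: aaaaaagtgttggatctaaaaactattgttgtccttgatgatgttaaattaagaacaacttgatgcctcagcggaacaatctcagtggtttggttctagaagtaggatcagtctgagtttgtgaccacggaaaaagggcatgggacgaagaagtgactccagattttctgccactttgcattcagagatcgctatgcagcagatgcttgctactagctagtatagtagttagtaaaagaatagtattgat
ZAR1: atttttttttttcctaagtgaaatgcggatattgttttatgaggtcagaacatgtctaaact
Motifs were searched on both strands: CGCG and CGTGT, cores bound by CAMTA factors, and TTGAC, the core of the W-box bound by WRKY factors. Any hit would be in capitals, and these 3 stretches hold none. Over the 250 bases before each member's start, 2 of 34 held CGCG (DSC1 and RPS4), against 10.7% of 17773 analysed protein-coding promoters. CGTGT was present in 10 of 34, against 22.5%, and TTGAC in 13 of 34, against 44.3%. The windows with CGTGT include those of CHS1 and RPS4 but not those of AT1G17600, DSC2 or ZAR1. The windows of DSC1 and RPS4 run into the divergent gene beside each. No match says only that these letters are absent from the window.

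The labels could be checked in part. CAMTA1 stood at 13.6 FPKM (fragment counts divided by transcript length and by the mapped total) in wild-type plants and 3.30 in the mutant, CAMTA3 at 9.94 and 2.68, CAMTA2 at 9.25 and 6.32, and ICS1 at 4.56 and 3.73. The 6 analysed salicylic acid responsive genes of a list of 7 were all lower in the mutant, with a median log2 ratio of -0.94. Of all analysed loci, 64.6% were lower, with a median of -0.06. The 3 leaf markers were abundant in both genotypes but went opposite ways, LHCB3 at 1760 and 815 FPKM, LHCB1.2 at 1623 and 775, and RBCS2B at 3096 and 5063. The flower markers AP1 and AG stayed below 1 FPKM. The shoot meristem genes STM and CLV1 were 4.67 and 2.37, and 18.2 and 16.2. Of the root markers, PYK10 was 51.6 and 55.8, and CASP1 was 0.940 and 1.57. The part of tissue makeup in the values below was not tested, and in bulk tissue fewer cells of a type and less RNA per cell cannot be told apart.

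The sensor NLR transcripts were close to the same level in both genotypes. The difference is given as a log2 ratio, log2(FPKM + 1) in the mutant minus that in the wild type, for loci with at least 1 FPKM in at least 1 genotype; adding 1 makes differences at low levels look smaller than they are. Of the 34 members, 32 passed this filter. Of these, 16 were higher in the mutant and 16 lower, while among all 18547 analysed loci 35.4% were higher and 64.6% lower. The median log2 ratio was -0.00 for the members and -0.06 for all loci, and the middle 50% of members lay between -0.10 and 0.10. A log2 ratio past 0.32 in either direction, which is a ratio of 5 to 4, was used as the mark of a difference. Past it stood 3 of the 32 members (9.38%), against 12.4% of all analysed loci, a share near the background. They were CHS1 and AT1G17600 on the higher side, where the background was 5.33%, and ZAR1 on the lower side, where it was 7.03%. None of the 32 reached 1.5-fold on this scale, against 3.8% of all loci, and with an added value of 0.1 in place of 1, CHS1 passed 1.5-fold. Scaling all ratios to a median of 0 made 20 members higher and 12 lower. TIR-type members had a median log2 ratio of -0.01 over 21 analysed genes and CC-type members 0.01 over 11.

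**Figure D1:**
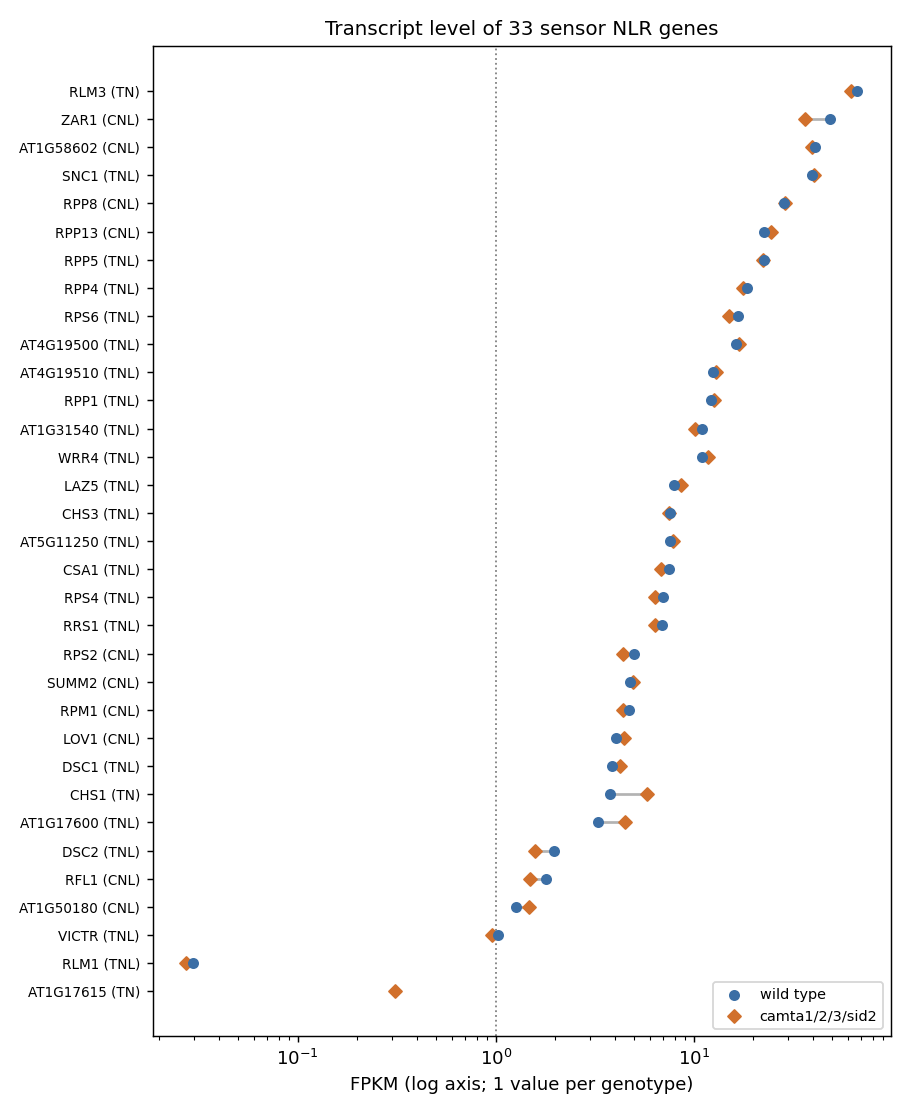
Transcript level of 33 sensor NLR genes in FPKM on a log axis, with a circle for the wild type and a diamond for camta1/2/3/sid2, ordered by the wild-type level; each point is 1 value per genotype and has no error bar. The points of most genes nearly coincide, and the gaps at CHS1, AT1G17600, ZAR1 and DSC2 are the widest. AT1G17615 has no wild-type point because it is listed at 0, and the dotted line marks 1 FPKM.

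The members covered a wide range of levels, and their order was much the same in both genotypes. FPKM is scaled to transcript length, so levels can be compared roughly between genes. For members with close copies or overlapping genes, how shared reads were divided is not known. RLM3, a TN gene named for resistance to Leptosphaeria maculans, was the highest, at 66.6 FPKM in wild-type plants and 62.2 in the mutant. ZAR1, AT1G58602 and SNC1 followed, each above 30 FPKM in both genotypes. At the other end VICTR, a TNL needed for the root response to a synthetic immune elicitor, was 1.03 and 0.957. RLM1, another receptor named for Leptosphaeria resistance, was under the filter at 0.0296 and 0.0273, and AT1G17615, a TIR-NBS gene, was listed at 0 in wild-type plants and at 0.309 in the mutant. Across the 32 analysed members, Spearman's rho between the levels of the genotypes was 0.975, a description over genes that come from the same libraries. Summed over all 34 members, the level was 452 FPKM in wild-type plants and 438 in the mutant.

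DSC1 and DSC2, the TNLs tied to CAMTA3, were low and did not share a direction. DSC1 (AT4G12010) was 3.88 FPKM in wild-type plants and 4.22 in the mutant, for a log2 ratio of 0.10. DSC2 (AT5G18370) was 1.98 and 1.57, which is 1.26-fold lower as a plain ratio of FPKM. The log2 ratio of DSC2 was -0.21, the second lowest of the members, and -0.31 with an added value of 0.1 in place of 1. DSC1 is annotated to share 50 exon bases with the divergent NLR gene AT4G12020, itself at 3.90 and 4.04 FPKM, and 236 with AT4G12005 at its other end. CAMTA3 itself was 3.72-fold lower in the mutant, but it is mutated by design, so its value cannot be set against those of the receptors.

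The highest log2 ratios belonged to a cluster of TIR genes on chromosome 1 that includes CHS1, a TN gene whose mutation causes chilling-sensitive autoimmunity. CHS1 (AT1G17610) was 3.77 FPKM in wild-type plants and 5.81 in the mutant, which is 1.54-fold higher as a plain ratio of FPKM. The TNL gene AT1G17600 beside it was 3.27 and 4.51, which is 1.38-fold higher. Their log2 ratios of 0.51 and 0.37 ranked 413th and 767th of 18547 loci. The last member of the cluster, AT1G17615, is the gene listed at 0 in the wild type, so no fold is given. In the RefSeq annotation CHS1 and AT1G17600 lie on opposite strands and share 2310 exon bases, of 2553 in CHS1 and 4782 in AT1G17600. Strand use in the authors' counting was not given in the sources used here. Therefore reads of the pair could be divided between them, and their values may not be independent. Without these 2 genes, 14 of 30 members were higher, the median was -0.01, and 1 was past the mark.

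Among the CNLs that guard host proteins, ZAR1 differed most. ZAR1 (AT3G50950), which forms a resistosome with pseudokinases such as ZED1 and RKS1, was 48.5 FPKM in wild-type plants and 36.6 in the mutant, 1.32-fold lower. Its log2 ratio of -0.40 ranked 17718th of 18547 from the highest. Its partners were close, ZED1 at 6.51 and 6.36 FPKM, RKS1 at 5.36 and 4.46, and the decoy kinase PBL2 at 4.04 and 4.40. The annotation places an antisense RNA, AT3G08170, over ZAR1 with 208 shared exon bases, and this RNA is not listed in the table analysed here. AT3G50960, which shares 103 bases with the other end of ZAR1, was 2.84 and 2.07 FPKM.

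RPM1 and RPS2 guard RIN4, a membrane-bound regulator of immunity that several bacterial effectors modify. RPM1 (AT3G07040) was 4.70 FPKM in wild-type plants and 4.39 in the mutant. RPS2 (AT4G26090) was 4.99 and 4.38, which is 1.14-fold lower, and RIN4 was 35.1 and 39.9. RPS2 is overlapped over 3285 of its 3535 exon bases by AT4G26095, a long noncoding RNA on the opposite strand at 3.29 and 2.46 FPKM.

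SUMM2 and RFL1 are related CNLs on chromosome 1, and their P-loop codons are the closest complements of miR472-3p shown above. SUMM2 (AT1G12280), which monitors a MAP kinase cascade through the kinase CRCK3, was 4.77 FPKM in wild-type plants and 4.93 in the mutant. RFL1 (AT1G12210) was 1.79 and 1.49, and AT1G12211, listed at 0 in both genotypes, covers 2888 of its 3234 exon bases on the opposite strand. They thus lay on either side of 0, with log2 ratios of 0.04 and -0.16. The transcripts of the proteins that SUMM2 watches were in part close and in part lower. CRCK3 was 13.7 and 12.9 FPKM. The cascade kinases monitored by SUMM2 were lower in the mutant, as were 64.6% of all analysed loci. MKK1, at 32.3 and 24.4, and MKK2, at 62.1 and 43.9, were past the mark. MPK4, at 41.8 and 34.1, was not, with a log2 ratio of -0.29. MEKK1, at the top of that cascade, was 8.25 and 8.08.

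The MIR472 locus (AT1G12294) was 4.55 FPKM in wild-type plants and 0.445 in the mutant. MIR472 lies on the same strand within AT1G12290, an NLR gene next to SUMM2 at 1.03 and 0.867 FPKM, so these loci can share reads. MIR825, another microRNA locus of the list, was at 32.0 FPKM in wild-type plants and is listed at 0 in the mutant. Short loci often differed by a large factor in this table. Of 168 analysed loci with a transcript of at most 200 bases, 77 (45.8%) differed by at least 2-fold, against 0.934% of 18195 longer ones and 1.48% of all analysed loci. The 4 proteins of the list that make or use small RNAs were closer, with RDR6, which starts the production of secondary small RNAs from NLR transcripts, at 11.2 and 9.14 FPKM, SGS3 at 6.04 and 5.48, DCL4 at 5.72 and 5.32, and AGO1 at 38.3 and 39.2.

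**Figure D2:**
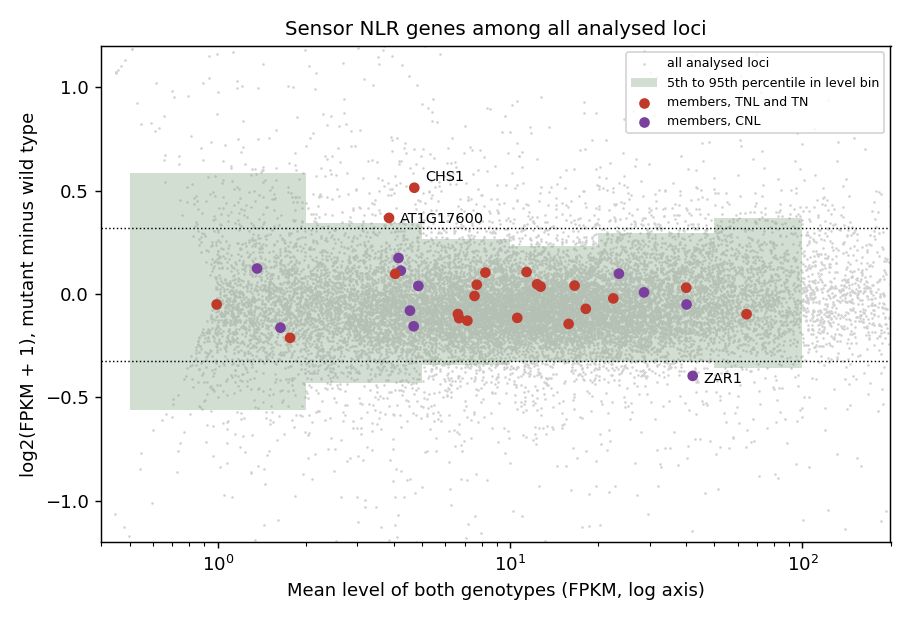
Log2 ratio of each analysed locus (grey) against its mean level in both genotypes on a log FPKM axis, with TNL and TN members in red, CNL members in purple, the 5th to 95th percentile of all loci per level bin in green and dotted lines at log2 ratios of 0.32 and -0.32. The band of all loci is narrowest at 10 to 20 FPKM, widest at 0.5 to 2 FPKM and wider again at 50 to 100 FPKM. CHS1, AT1G17600 and ZAR1 are the 3 members outside the band of their bin.

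How far loci of a given level differed gives the scale for these 3 genes. Among 3135 loci of 2 to 5 FPKM the 5th percentile of the log2 ratio was -0.43 and the 95th was 0.34, and CHS1 and AT1G17600 lay above it. Among 3445 loci of 20 to 50 FPKM the same percentiles were -0.33 and 0.29, and ZAR1 lay below. DSC2, at -0.21, lay within the band of its level, whose lower end was -0.56. In all, 3 of 32 members were outside the band of their level, and by construction the bands leave out 10% of loci. Across members, the level and the log2 ratio had a Spearman's rho of -0.17, given as a description.

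Among the side-by-side receptor pairs shown here, the level ratio was nearly the same in both genotypes for some and slightly different for others. RPS4, the executor of its pair, was 7.01 FPKM in wild-type plants and 6.39 in the mutant. RRS1, its partner with an integrated WRKY domain that baits effectors, was 6.89 and 6.38. The ratio of RPS4 to RRS1 was 1.02 in wild-type plants and 1.001 in the mutant, across the 27-base stretch printed above. CHS3 carries an integrated LIM domain and, when mutated, causes chilling sensitivity; it was 7.58 and 7.53 FPKM. Its partner CSA1 was 7.51 and 6.79, which gives a CHS3 to CSA1 ratio of 1.01 in wild-type plants and 1.11 in the mutant. The adjacent TNL genes AT4G19500, at 16.4 and 16.9 FPKM, and AT4G19510, at 12.5 and 12.9, had ratios of 1.30 and 1.31. The overlapping genes CHS1 and AT1G17600, whose values may not be independent, had ratios of 1.15 and 1.29. The log2 ratios differed by 0.12 between CHS3 and CSA1 and by 0.15 between CHS1 and AT1G17600. For scale, the median absolute log2 ratio of single loci was 0.13 over all analysed loci. The transcript of AT1G27190, a receptor-like kinase gene of the partner list, was 25.7 and 20.8.

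The 4 members of the RPP4-RPP5 cluster on chromosome 4 were abundant, 148 FPKM together in wild-type plants and 143 in the mutant, and none was past the mark. SNC1, whose gain-of-function allele causes autoimmunity, was 39.6 FPKM in wild-type plants and 40.5 in the mutant. RPP4, a receptor for downy mildew, was 18.6 and 17.7, and RPP5, named for the same disease, was 22.7 and 22.4. With RLM3 these 4 members had log2 ratios from -0.10 to 0.03. The annotated NLR neighbours in the cluster were also close, AT4G16900 at 4.85 and 4.78 FPKM, AT4G16960 at 1.15 and 1.13, AT4G16940 at 0.607 and 0.608 and AT4G16920 at 0.141 and 0.146. The coding sequence of RPP5 is 92.8% identical to that of AT4G16920 over 95.1% of its length, and RPP4 is 93.6% identical to it over 47.9%. The labels do not say how reads shared by such copies were divided.

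The remaining TNLs were within 0.32 of no difference where they passed the filter. RPP1, another downy mildew receptor, was 12.1 FPKM in wild-type plants and 12.6 in the mutant. RPS6, which recognises the effector HopA1, was 16.7 and 15.0, and LAZ5, which is needed for the cell death of acd11 mutants, was 7.90 and 8.57. ACD11 itself, a lipid transfer protein gene, was 43.9 and 41.8. WRR4, a white rust receptor, was 10.9 and 11.8. AT5G11250 was 7.55 and 7.83, and AT1G31540 was 11.05 and 10.1. Their log2 ratios, with that of VICTR, ran from -0.14 to 0.11, and 4 of these 7 were higher. VICTR has a 96.5% identical neighbour, AT5G46510, at 3.87 and 3.17 FPKM, and RPP1 is 91.5% identical to AT3G44670, at 16.0 and 14.9, over 63.8% of its coding sequence.

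The remaining CNLs were close to the same level in both genotypes. RPP8, a downy mildew receptor whose alleles also act against viruses, was 28.6 FPKM in wild-type plants and 28.8 in the mutant. Its 95.1% identical copy AT5G48620 was 25.98 and 24.5. RPP13 was 22.7 and 24.4, AT1G58602 40.8 and 39.4, and AT1G50180 1.26 and 1.47. LOV1, whose alleles can confer sensitivity to the fungal toxin victorin by guarding thioredoxin TRX5, was 4.03 and 4.44, and TRX5 was 48.2 and 44.6. Of these 5 genes 4 were higher, RPP8 by a log2 ratio of only 0.01, against 35.4% of all analysed loci. Their median log2 ratio was 0.10 and none was past the mark, while all 11 CC-type members had a median of 0.01.

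The genes through which the receptors act were also mostly close, and the analysed exceptions were lower apart from BAP1. The counts that follow stand beside 64.6% of all analysed loci lower in the mutant and 12.4% past the mark. Of the 10 genes of the helper NLR and EDS1 list, 5 were higher and 5 lower (median -0.08), and 2 were past the mark. AT3G48080, the locus next to EDS1, was 3.54 FPKM in wild-type plants and 1.97 in the mutant, and AT5G66910 of the helper list was 6.82 and 5.23. EDS1 was 11.1 and 9.67, PAD4 8.45 and 9.21, and SAG101 11.01 in both. The helpers ADR1, at 2.27 and 2.93, and ADR1-L1, at 23.6 and 20.4, went opposite ways. Of the 8 genes of the NLR chaperone list 7 were lower, none of them past the mark of 0.32, with a median of -0.11. CRT1, an ATPase that interacts with NLRs, was 7.42 and 6.28, and RAR1 20.1 and 17.6. SGT1B, the co-chaperone of HSP90, was 70.2 and 64.4. Of the 14 regulators of NLR abundance 10 were lower and 4 higher, with a median of -0.10. BAP1, a calcium-binding suppressor of SNC1-mediated defence, was 0.732 and 1.4004, a log2 ratio of 0.47 and the only regulator past the mark, and its partner BON1 was 7.35 and 9.30. TPR1, a corepressor that associates with SNC1, was 21.6 and 18.1, and SRFR1, a repressor of NLR activity, was 16.2 and 14.5. Of the 16 guarded or partner proteins 14 were lower, 3 of them past the mark (MKK1, MKK2 and CAMTA3, which is mutated by design), with a median of -0.10 against -0.06 for all loci.

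**Figure D3:**
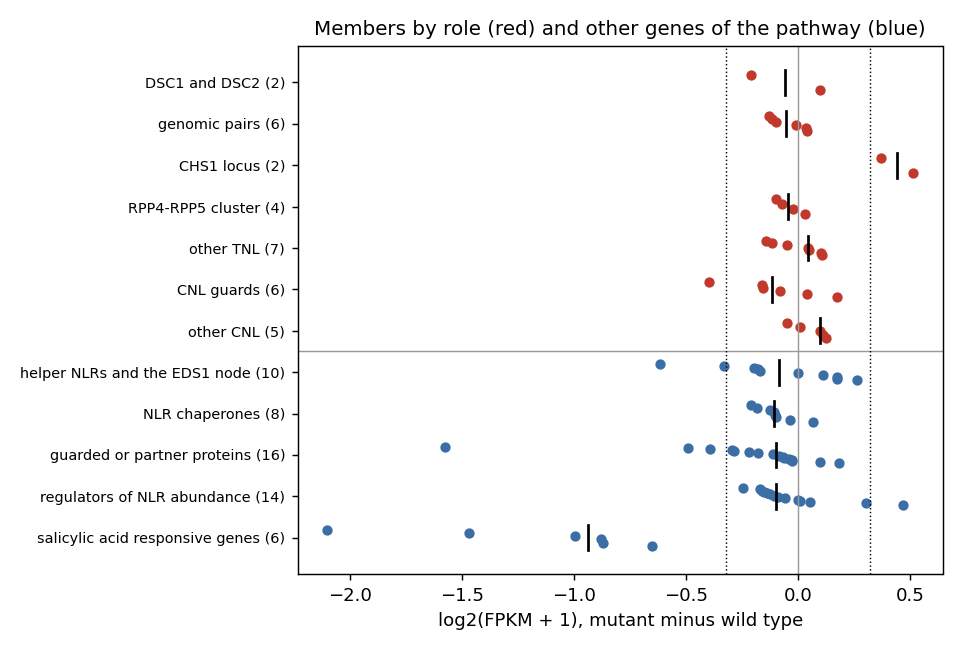
Log2 ratio of each analysed gene by role, with the members in red above the line and other genes of the pathway in blue below it; vertical bars are medians, dotted lines mark log2 ratios of 0.32 and -0.32, and the number of genes is in parentheses. Members cluster near 0 apart from the CHS1 locus and ZAR1, while the salicylic acid responsive genes lie between -2.10 and -0.65.

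Annotated NLR genes outside the list also had a median close to 0. Of 122 other genes whose RefSeq product names an NBS or NB-ARC domain or a disease resistance protein, 66 passed the filter, 31 higher and 35 lower, with a median log2 ratio of -0.02. Past the mark were 4 of these (6.06%), all lower in the mutant, against 7.03% of all analysed loci on the lower side and 12.4% in either direction. Of the 21 annotated NLR genes within 5 genes of a member, 10 passed the filter and none was past the mark, with 5 higher and 5 lower. In the annotation 9 members share exon bases with a gene on the opposite strand. The difference between the members and these NLR genes was not tested, because there is 1 value per genotype.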

How the data were processed

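The authors deposited FPKM values, 1 per genotype and locus, per the file headers, with no word on how the 3 libraries of a genotype were combined. The tools TopHat 1.4.1, Cufflinks 2.1.1 and Cuffdiff and the genome build TAIR10 are named in the submitters' processing notes. Depth is unknown. Strand use and the handling of multiply mapped reads were not given in the sources used here. From these values the log2 ratio was computed with a pseudocount of 1 after a filter of 1 FPKM in either genotype, and counts and medians of members were set beside all analysed loci. No test was possible with 1 value per genotype. The calculation was tested on simulated data with large planted differences in abundant loci, counted at 2-fold. That test does not cover differences near the mark of 0.32 or low levels. RefSeq TAIR10.1 annotation matched 97.8% of loci by identifier; the table holds no coordinates, so those printed are TAIR10.1. Copies were found with blastn 2.17.0, best hit between longest coding sequences. Python 3.11.15, numpy 2.4.6, pandas 2.3.3 and matplotlib 3.10.9 were used. The members, lists, folds and alternatives were chosen with earlier results of these data known. All members are named but 1, which is not reported singly here though it is in the counts. Other genes come from the lists or are NLR neighbours, list genes being those with the highest absolute log2 ratio or partners of a member; others serve as examples.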

Additional observations from a re-analysis of the deposited data

How the results depend on the processing

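The 6 alternatives were pseudocounts of 0.1 and 0.5, no filter, a filter of 5 FPKM, ratios shifted to a median of 0, and leaving out loci listed at 0. The median of the members lay between -0.01 and 0.06. The number past a log2 ratio of 0.32 in either direction was 3 (9.38%) with pseudocounts of 0.1 and 0.5, against 16.5% and 14.4% of all loci. It was 4 of 34 (11.8%, against 10.6%) without the filter, through AT1G17615, and 2 of 21 (9.52%, against 11.1%) at 5 FPKM, so the members' share lay above that of all loci without the filter. The number of members higher in the mutant was 10 at 5 FPKM because only 21 members remained, with 11 lower. With a pseudocount of 0.1, 1 member, CHS1, was past 1.5-fold, against 0 otherwise. The log2 ratio of every analysed member moved by at most 0.1 or by less than 1.5 times under each alternative that kept it. No paired analysis was possible because the table gives 1 combined value per genotype, and for the same reason no library could be left out. Depth is unknown, so no interval can be set on low values such as those of DSC2, RFL1 and VICTR.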

Other observations

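Among the NLR genes outside the list, the 4 past a log2 ratio of 0.32 in either direction were AT1G63750, AT1G63860, AT5G41740 and AT4G36150, named after their values were seen. All 4 are annotated as TIR-NBS-LRR genes and all were lower in the mutant. They are 6.06% of the 66 analysed, against 7.03% of all analysed loci on the lower side. AT1G63750 was 1.58 FPKM in wild-type plants and 0.683 in the mutant, and AT1G63860, a few loci away on chromosome 1, was 2.90 and 1.85. AT5G41740 was 3.00 and 2.03, and AT4G36150 was 4.86 and 3.56. The log2 ratios of AT5G41740 and AT4G36150, -0.40 and -0.36, lay within the band of loci of 2 to 5 FPKM, whose lower end was -0.43. AT1G63860, at -0.45, lay below that band. AT1G63750, at -0.61, lay below the band of loci of 0.5 to 2 FPKM, whose lower end was -0.56. AT1G63750 alone was past 1.5-fold.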
